A study of Mus musculus with 24 samples.

Results

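The knockdown of *Smarca4* was compared with a nonsilencing control (Nons) in male C57/Bl6 mouse embryonic stem cells (mESCs) during differentiation. The comparison holds 12 of the 20 RNA-seq samples with values in the table, chosen by their titles: 8 *Smarca4* knockdown libraries and 4 Nons libraries, matched by day. The cells were expanded in 2i, a medium that keeps mESCs in the naive state, and were weaned into differentiation medium. Virus carrying a hairpin was added on day 2, puromycin was applied from day 3 to kill cells without it, and RNA was taken on days 4, 5, 6 and 7. *Smarca4* was targeted by the hairpins Smarca4.4 and Smarca4.6, each sequenced once on each of the 4 days, as was Nons. All groups therefore share the cell strain, the virus, the selection and the medium, and differ in the hairpin. The 8 *Smarcc1* knockdown libraries of the same timecourse were used for the spread and for a comparison that leaves out Nons, and 4 libraries of a second Nons replicate were not analysed here.

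Smarca4, also known as Brg1, is the ATPase of the BAF complex, which slides and ejects nucleosomes with energy from ATP. Smarca2 is the alternative ATPase, and subunits such as Smarcc1, Smarcb1 and Arid1a build the complex around the motor. The form of the complex found in mESCs is built on Smarca4, and it is known for opening enhancers, for opposing polycomb repression and for its part in pluripotency and lineage commitment.

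The guide strands of the hairpins are shown because they define the knockdown. Each is written 5′ to 3′ as DNA, with the seed, bases 2 to 8, in capitals.
Nons: cTTACTCTcgcccaagcgagag
Smarca4.4: tTTATTACtgtctgactccagt
Smarca4.6: tTGCATAAtagtgttcatcagt
The reverse complement of each guide was searched among 141767 transcripts of GENCODE M21, which uses the mm10 assembly. The Smarca4.4 target lay at chr9:21703327-21703348 on the + strand, in the 3′ UTR within exon 34 of 34, and it was present in 3 of 4 annotated *Smarca4* transcripts. The Smarca4.6 target lay at chr9:21670504-21670525 on the same strand, in the coding sequence of exon 22, and was present in all 4 transcripts. A perfect match in a transcript of another gene was found for neither, and the Nons guide had no perfect match. The closest stretch of *Smarca2* differed from the target at 7 bases for Smarca4.4 and at 4 bases for Smarca4.6. The hairpins thus have different seeds and different target sites in the same messenger RNA.

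Levels are given as rpm, which corrects each count for the size of its library, and differences are log2 ratios of knockdown to Nons of the same day, averaged over the 4 days unless a day is named. A gene was called at a Benjamini-Hochberg adjusted *p* under 0.05 among 13296 genes tested with limma. Library totals were 15717152 to 27472885 reads in Nons and 6829596 to 23551166 in *Smarca4* knockdown, and the smallest was Smarca4.4 on day 5. The spread comes from pairs of hairpins, and a single Nons series stands behind every comparison with Nons, so variation between Nons cultures was not measured. Nothing in the labels says that the libraries are separate cultures, and the adjusted *p*-values measure only the spread between these libraries.

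*Smarca4* was lower in 8 of 8 knockdown libraries. Nons had 222, 151, 90.4 and 160 rpm on days 4, 5, 6 and 7. The knockdown had 56.0, 49.5, 50 and 42.2 rpm with Smarca4.4, and 62.9, 36.3, 19.5 and 43.6 rpm with Smarca4.6. The groups did not overlap: the highest knockdown library lay below the lowest Nons library. The level left was 21.6% to 32.8% of same-day Nons in 7 libraries and 55.3% with Smarca4.4 on day 6, when Nons itself was lowest. The mean difference was -1.79 (SE 0.288, adjusted *p* 0.00277), and its adjusted *p* was 0.0685 with the Smarca4.4 libraries alone and 0.0558 without day 7. A genotype label calls these libraries a Smarcc knockdown. The titles name *Smarca4* and were followed, and *Smarcc1* was 0.21 higher than Nons on the log2 scale without passing the test (adjusted *p* 0.63).

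**Figure D1:**
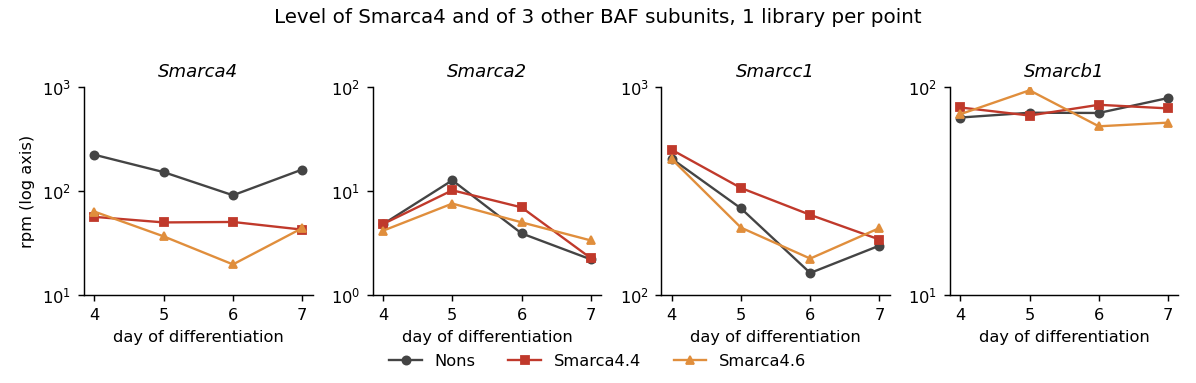
Level in rpm (log axis) of *Smarca4*, *Smarca2*, *Smarcc1* and *Smarcb1* by day of differentiation in Nons and with each *Smarca4* hairpin, with 1 library per point and no error bars. The *Smarca4* points of both hairpins, 19.5 to 62.9 rpm, lie below all Nons points, 90.4 to 222 rpm, while the series of the other 3 genes cross.

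Of the 13 tested genes for BAF core subunits, *Smarca4* was the only one called. *Smarca2* had 2.18 to 12.6 rpm in Nons and 2.24 to 10.1 rpm in the knockdown, and differed by 0.07 (SE 0.197, adjusted *p* 0.894). *Smarcb1* had 71.2 to 88.4 rpm in Nons and 64.6 to 96.3 rpm in the knockdown, and differed by -0.01 (SE 0.118). *Smarce1* differed by -0.06 (SE 0.097), and *Arid1a*, which targets the canonical complex to DNA, by 0.42 (SE 0.356). The list had a median difference of 0.06, and the median of all genes was also 0.06. Of 12 tested genes for subunits that mark the BAF, PBAF and ncBAF forms, 1 was higher and 1 was lower. *Dpf1*, a subunit of the neuronal complex, was higher by 0.77 (adjusted *p* 0.0344), and *Phf10*, a subunit of PBAF, was lower in 8 of 8 libraries, at -0.47 (adjusted *p* 0.0183). Neither was called with the 4 days of each hairpin, or of Nons, as a replicate block. None of the 20 tested genes for other chromatin remodellers passed, and their median difference was 0.14. Among all genes 6.71% were called, and lists of this size are too small to tell an absence of calls from that share.

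Across the genome, 892 of the 13296 genes, 6.71%, were called in the *Smarca4* knockdown. Of these, 631 were higher (4.75% of genes tested) and 261 were lower (1.96%). The median called rise was 0.97 and the median called fall -0.86 on the log2 scale, and 292 genes were more than doubled and 95 more than halved. The 2 hairpins lay on the same side of Nons on all 4 days for 682 of the called genes. The calls rest on these same differences, which share a single Nons series, so the agreement is not a separate test. Its share among all genes was not counted. All Nons libraries were separated from all knockdown libraries for 82 of them (9.19%), beside 0.76% of all genes tested, and the calls rest on the same values. The share of higher genes among those called was 70.7%. It was 60.5% after centring on the median gene and 52.9% after quantile normalization, so the excess of higher genes depends on the scaling. With a replicate block for the 4 days of each hairpin or of Nons, 258 genes were called, 183 higher and 75 lower. With a single hairpin in the fit, 420 genes were called for Smarca4.6 and 277 for Smarca4.4, and without day 7 132 genes were called.

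The largest rises among genes with at least 10 rpm in 1 group, and with all 8 libraries above Nons, mixed regulators of several tissues. *Ccno*, a cyclin-like gene needed for the centrioles of multiciliated cells, fell in Nons from 44.1 rpm on day 4 to 11.2, 1.59 and 0.693 rpm. It stayed at 88.6, 39.1, 11.3 and 6.04 rpm with Smarca4.4, and at 74.6, 49.7, 20.2 and 8.47 rpm with Smarca4.6. Each knockdown library exceeded same-day Nons, and the mean difference was 2.37 (SE 0.18, adjusted *p* 3.25e-05). *Insm1*, a zinc finger factor of neuroendocrine cells, was higher by 2.03, *Rhd*, an erythroid membrane protein, by 2.17, *Ap3b2*, a neuronal vesicle coat subunit, by 2.06, and *Hydin*, a protein of motile cilia, by 1.92. The remaining 6 were *Gchfr*, a regulator of tetrahydrobiopterin synthesis, at 1.92, *Klf2* at 1.65, *Arl4d*, a small GTPase, at 1.55, *Ifitm1*, an interferon-induced membrane protein of the early germline, at 1.49, the zinc finger gene *Zmym3* at 1.48, and *Sfmbt2*, a polycomb protein of the trophoblast, at 1.45.

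The largest falls were led by *Kctd12b*, an X-linked gene of the BTB domain family. It was at 10.3, 21.1, 54.3 and 21 rpm in Nons, at 6.91, 10.1, 11.6 and 3.52 rpm with Smarca4.4, and at 6.37, 4.12, 5.34 and 2.37 rpm with Smarca4.6. The difference was -2.0 (SE 0.264, adjusted *p* 0.000777) and was wider on the later days than on day 4. The test of the change from day 4 to day 7 did not call *Kctd12b*. *Krt19*, a keratin of simple epithelia, was at 4.48, 5.37, 152 and 441 rpm in Nons, at 1.62, 2.64, 32.8 and 84.5 rpm with Smarca4.4, and at 2.31, 4.20, 24.0 and 42.8 rpm with Smarca4.6. It increased with time in all series, but reached the highest level in Nons, and its difference was -1.80 (SE 0.216, adjusted *p* 0.000492). *Cpe*, which trims peptide hormones, differed by -1.80, and on day 7 it stood at 72.9 rpm in Nons and at 12.6 and 6.76 rpm in the knockdown. *Smarca4* itself came next. The others were *Chst11*, a chondroitin sulfotransferase, at -1.57, *Spon1*, a matrix protein of axon guidance, at -1.50, the lysosomal protease gene *Ctsc* at -1.47, *Dcaf12l1* at -1.41, *Cth* at -1.29, *Crym*, a thyroid hormone binding protein, at -1.29, *Cntfr*, the receptor subunit for ciliary neurotrophic factor, at -1.27, and *Tspan7*, a tetraspanin, at -1.25.

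**Figure D2:**
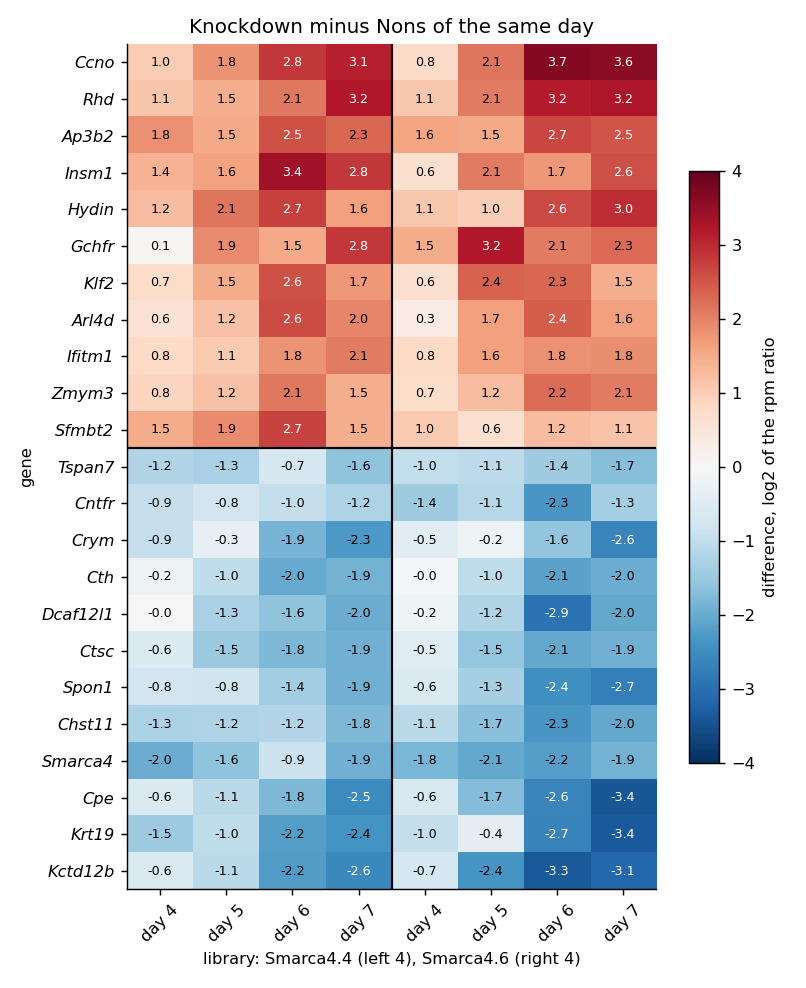
Difference from same-day Nons (log2 of the rpm ratio, colour and number) for 11 of the 12 strongest rises (top) and all 12 strongest falls (bottom) at 10 rpm or more, with the 4 days of Smarca4.4 on the left and of Smarca4.6 on the right. All 8 libraries of a gene share a direction because the choice of genes required it, and the differences of *Ccno*, *Rhd*, *Cpe* and *Krt19* are wider on days 6 and 7 than on day 4. For *Ccno*, *Rhd*, *Cpe* and *Krt19* the test of the change from day 4 to day 7 made no call.

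Core and naive pluripotency factors formed the gene list with the largest share of called members among those with more than 10 tested genes. Of 25 listed genes 24 were tested, 12 were higher (50%, beside 4.75% of all genes) and none was lower, and their median difference was 0.74. The list median lay above 0 in 8 of 8 libraries, between 0.33 and 1.02. With the replicate block 6 members were called, 4 with Smarca4.4 alone, 6 with Smarca4.6 alone and 2 without day 7. The list holds genes that keep mESCs in the naive state and genes that mark it, and not all of them declined in Nons over these days. A negative difference was found in 4 of the 24, among them *Nr0b1* at -0.57 and *Klf5* at -0.435, neither called.

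*Klf2*, a Kruppel-like factor of the naive network, was at 35.4, 9.12, 2.67 and 6.29 rpm in Nons. It was at 58.5, 25.3, 15.7 and 20.8 rpm with Smarca4.4 and at 55.3, 47.0, 13.0 and 17.2 rpm with Smarca4.6, a difference of 1.65 (SE 0.168, adjusted *p* 0.000262). *Klf2* declined in all 3 series, and each knockdown library stayed above Nons of its day. *Esrrb*, an orphan nuclear receptor that can stand in for Nanog, was at 48.4, 9.12, 3.05 and 3.14 rpm in Nons. It was at 99.1, 19.3, 13.2 and 7.82 rpm with Smarca4.4 and at 85.5, 19.5, 7.69 and 6.93 rpm with Smarca4.6, a difference of 1.24 (SE 0.188, adjusted *p* 0.00181). *Jam2*, a junction adhesion protein, was higher by 1.14 (adjusted *p* 0.0375). *Dppa3*, a maternal factor that shields DNA from demethylation in the zygote, was higher by 1.13 (adjusted *p* 0.0157). Unlike *Klf2* and *Esrrb*, *Dppa3* was more abundant in Nons on day 6, at 26.8 rpm, than on day 4, at 8.04 rpm. *Dppa2*, a chromatin factor shown in the timecourse plots, was higher by 0.98 in 8 of 8 libraries (adjusted *p* 0.00133).

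*Nanog*, part of the core network, was named after its values were seen. Nons had 90.1, 95.8, 127 and 64.5 rpm, Smarca4.4 had 164, 156, 215 and 112 rpm, and Smarca4.6 had 207, 188, 236 and 95 rpm. The difference was 0.84 (SE 0.152, adjusted *p* 0.00554), and it was of like size on all days, 1.03 on day 4 and 0.68 on day 7. The call of *Nanog* was lost with either hairpin alone and without day 7. The 2 other core factors were not called: *Sox2* differed by 0.07 (adjusted *p* 0.799), and *Pou5f1*, also known as Oct4, by -0.51 (adjusted *p* 0.122). *Pou5f1* was at 1610, 1080, 785 and 227 rpm in Nons, at 1170, 936, 357 and 131 rpm with Smarca4.4, and at 1500, 1140, 459 and 142 rpm with Smarca4.6, and so lay below Nons in 7 of 8 libraries. Beside them *Dppa5a*, with a median of 666 rpm in Nons and 729 rpm in the knockdown, was not called.

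Germline and meiosis genes were called in nearly as large a share, 48.3% against 50% of the tested pluripotency factors. Of 31 genes 29 were tested, 14 were higher and none was lower, and all 29 had a positive difference, with a median of 0.57. The median was 0.29 on day 4, 0.25 on day 5, 0.80 on day 6 and 1.29 on day 7. With the replicate block 6 members were called, 8 after quantile normalization, 3 with Smarca4.4 alone, 7 with Smarca4.6 alone and 1 without day 7. These genes serve the making of eggs and sperm, and several are silenced by promoter methylation in somatic cells.

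*Dmrt1*, a sex determination factor of the testis, was at 37.5, 35.9, 18 and 12.7 rpm in Nons. It was at 55.7, 63.1, 44.3 and 53.3 rpm with Smarca4.4 and at 54.7, 73.9, 84.0 and 66.1 rpm with Smarca4.6, a difference of 1.37 (SE 0.169, adjusted *p* 0.000575). The *Dmrt1* level declined in Nons, and on day 7 both hairpins stood well above it, at 53.3 and 66.1 rpm against 12.7 rpm. *Stag3*, the meiotic cohesin subunit, was at 39.6, 31.4, 27.5 and 22.1 rpm in Nons. It was at 52.3, 64.3, 83.2 and 76.4 rpm with Smarca4.4 and at 49.3, 54.8, 80.9 and 86.8 rpm with Smarca4.6, so the groups did not overlap, and it differed by 1.18 (SE 0.159, adjusted *p* 0.000848). *Mael*, of the piRNA pathway that silences transposons, was higher by 1.17 (adjusted *p* 0.00297), and *Tdrd9*, an RNA helicase of the same pathway, by 1.24 (adjusted *p* 0.0152). *Tdrd9* had at most 2.01 rpm. *Piwil2*, a PIWI protein that binds piRNAs, was named after its values were seen and was higher by 1.09 in 8 of 8 libraries (adjusted *p* 0.00146).

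Among two-cell stage genes, which are active at the first cleavage of the mouse embryo and in rare mESCs, 11 of the 17 in the table were tested, 2 were higher and the median difference was 0.57. *Zscan5b* was at 2.69, 1.01 and 0.0636 rpm on days 4 to 6 in Nons and had no reads on day 7, where the knockdown had 0.274 and 0.711 rpm. Its adjusted *p* was 0.000275, and its fitted difference rests in part on the value given to a gene without reads. *Zscan4d* was higher by 0.93 in 8 of 8 libraries (adjusted *p* 0.0441). It belongs to a cluster of near-identical copies, and how reads were shared among them is uncertain. Under the block *Zscan5b* was called and *Zscan4d* was not.

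Genes that write or read repressive chromatin were called in small numbers. Of 30 tested polycomb group genes 3 were higher (10%, beside 4.75% of all genes) and none was lower, with a median of 0.14. *Bmi1*, a subunit of polycomb repressive complex 1, was at 17.2, 14.7, 8.59 and 7.73 rpm in Nons, at 30.0, 22.7, 19.9 and 23.7 rpm with Smarca4.4 and at 28.9, 16.4, 22.2 and 25.5 rpm with Smarca4.6. *Bmi1* was above same-day Nons in 8 of 8 libraries, by 1.03 on average (SE 0.151, adjusted *p* 0.00149), and *Phc2*, of the same complex, by 0.78 (adjusted *p* 0.0252). Of 16 tested DNA methylation genes 2 were higher (12.5%) and none was lower. *Dnmt3l*, the catalytically inactive partner of the de novo methyltransferases, was at 1320, 365, 186 and 228 rpm in Nons, at 1620, 595, 576 and 743 rpm with Smarca4.4 and at 1490, 895, 522 and 694 rpm with Smarca4.6. Its difference was 1.11 (SE 0.126, adjusted *p* 0.000394), from 0.24 on day 4 to 1.66 on day 7. The change between these days was not called when tested directly. *Zfp57*, which protects imprints, was higher by 0.38 (adjusted *p* 0.0287). Under the block 2 of the polycomb genes and, of the methylation genes, *Dnmt3l* were called. Of 13 tested genes of histone H3K9 methylation and HP1, 1 was lower (7.69%, beside 1.96% of all genes), also under the block, and none was higher. None of the 19 tested X inactivation regulators was called, but the list is too small to tell this from the 6.71% called among all genes.

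**Figure D3:**
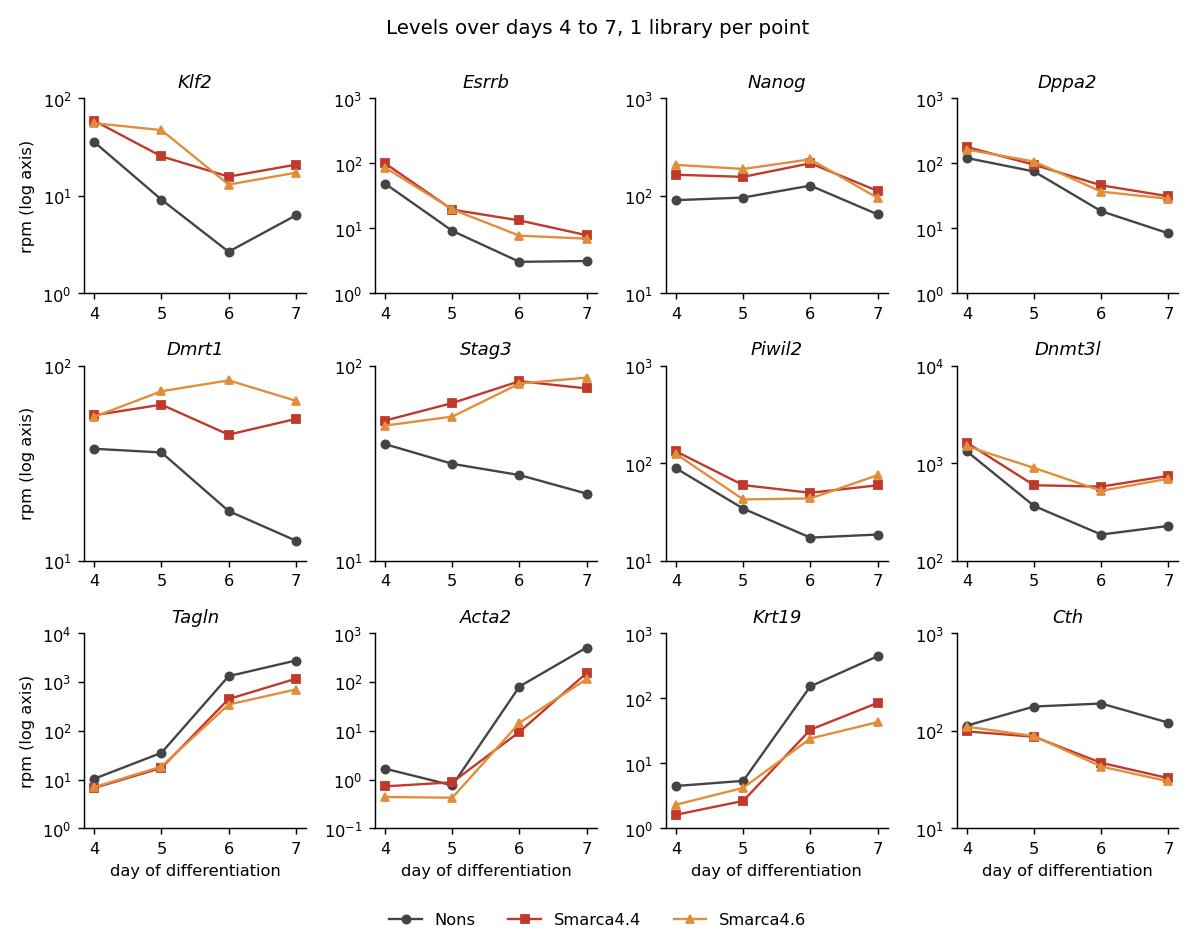
Level in rpm (log axis) of 12 genes described in the text by day of differentiation, in Nons and with each *Smarca4* hairpin, with 1 library per point and no error bars. The 8 genes of the first 2 rows stay above Nons in all knockdown libraries, and *Tagln*, *Krt19* and *Cth* stay below it, whereas *Acta2* with Smarca4.4 crosses Nons on day 5, at 0.879 against 0.76 rpm.

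Genes of the retinoic acid pathway, a vitamin A signal that patterns the embryo, were called in the higher direction alone. Of 16 tested 5 were higher (31.2%, beside 4.75% of all genes), none was lower, and the median difference was 0.37. *Stra8*, a retinoic acid target that starts meiosis, was at 12.8, 19, 8.84 and 5.06 rpm in Nons, at 7.09, 49.8, 31.0 and 32.4 rpm with Smarca4.4 and at 10.1, 69.6, 76.0 and 51.4 rpm with Smarca4.6. Both hairpins lay below Nons on day 4 and above it from day 5, and the mean difference was 1.63 (SE 0.277, adjusted *p* 0.00403). *Aldh1a2*, which makes retinoic acid, was higher by 1.78 (adjusted *p* 0.00146), but Nons had only 0.127 and 0.107 rpm on days 6 and 7, under the 0.191 and 0.16 rpm that 3 reads are worth there. The homeobox cofactors *Meis2* and *Meis1* were higher by 1.22 and 1.21. The receptors *Rarg* and *Rara* were tested and not called. Of the retinoic acid list 3 members were called with the replicate block, and 1 without day 7.

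Genes of epithelia and of the trophoblast moved both ways. Of 12 tested trophoblast factors and keratins of simple epithelia 4 were higher (33.3%) and 1, *Krt19*, was lower (8.33%). Among all genes 4.75% were higher and 1.96% were lower. *Esx1*, an X-linked placental homeobox gene, was at 0.91, 1.42, 2.35 and 11.7 rpm in Nons, at 1.71, 1.90, 9.27 and 47.6 rpm with Smarca4.4 and at 1.76, 2.93, 6.54 and 37.8 rpm with Smarca4.6, higher by 1.31 (SE 0.182, adjusted *p* 0.0011). *Hand1* was higher by 1.35, *Gata2* by 1.10 and *Tfap2c* by 0.84, each in 8 of 8 libraries. The keratins *Krt8*, *Krt18* and *Krt7* were not called. Of 8 tested claudins, which seal tight junctions, 3 were higher (37.5%). The 8 split into 4 positive and 4 negative differences, with *Cldn6* at -0.471 and not called. Their median of 0.083 was near the 0.064 of all genes. *Cldn3* was at 2.29, 7.39, 25.2 and 39.8 rpm in Nons, at 5.55, 14.9, 54.3 and 96.8 rpm with Smarca4.4 and at 7.03, 28.1, 63.3 and 66.9 rpm with Smarca4.6, higher by 1.29 (SE 0.189, adjusted *p* 0.00154). *Cldn4* was higher by 0.73 (adjusted *p* 0.0169) and *Cldn9* by 0.97 (adjusted *p* 0.0401). With the replicate block 2 of the higher trophoblast genes and 1 of the claudins were called, and without day 7 1 of each. Of 21 tested genes of epithelial junctions 3 were higher (14.3%), *Cldn3*, *Cldn4* and *Esrp2*, a splicing factor of epithelia. *Esrp2* was higher by 0.82 (adjusted *p* 0.0196), but was not called under the block. The epithelial cadherin *Cdh1* and *Epcam* were not called.

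Contractile and mesenchymal genes were called mostly in the lower direction. Of 23 tested genes of the contractile cytoskeleton and targets of the serum response factor 6 were lower (26.1%) and 3 were higher (13.0%). Among all genes 1.96% were lower and 4.75% were higher. The median of the list was -0.14. *Tagln*, an actin-binding protein of smooth muscle, was at 10.4, 35.3, 1310 and 2740 rpm in Nons. It was at 6.74, 17.3, 446 and 1160 rpm with Smarca4.4 and at 6.98, 18.5, 344 and 699 rpm with Smarca4.6, a difference of -1.23 (SE 0.156, adjusted *p* 0.000611). *Tagln* was induced between days 5 and 6 in all 3 series, and each knockdown library stayed below Nons. *Acta2*, smooth muscle actin, was at 1.67, 0.76, 80.5 and 506 rpm in Nons, at 0.726, 0.879, 9.50 and 152 rpm with Smarca4.4 and at 0.439, 0.425, 14.5 and 114 rpm with Smarca4.6, a difference of -1.65 (SE 0.215, adjusted *p* 0.000701). *Csrp1*, a LIM protein of actin bundles, differed by -1.15 and *Cnn1*, a calponin, by -1.02 (adjusted *p* 0.00107 and 0.00175). The 3 higher members were *Fos*, an immediate early gene, at 1.40, *Ctgf*, a secreted matrix protein, at 0.57, and *Myl9*, a myosin light chain, at 0.50. With the replicate block 4 members were lower and none was higher.

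Of 11 tested mesenchymal genes 3 were lower (27.3%, beside 1.96% of all genes) and none was higher, with a median of -0.43. They were *Tagln* and *Acta2*, which the contractile list also holds, and *Cdh2*, the neural cadherin. *Cdh2* had 1.47 to 6.29 rpm in Nons and 0.318 to 1.48 rpm in the knockdown and differed by -1.78 (adjusted *p* 0.00945). The abundant members *Fn1* and *Vim* were not called. *Cdh2* also counts among 19 tested genes of the formative and primed epiblast, the state that follows the naive one. Of these 19, 3 were lower (15.8%) and none was higher, with a median of 0.01. *Fgf5*, the classical marker of the primed epiblast, was at 26.4, 53.2, 41.9 and 23.4 rpm in Nons, at 11.3, 35.9, 31.8 and 14.7 rpm with Smarca4.4 and at 9.89, 26.9, 11.9 and 7.17 rpm with Smarca4.6, a difference of -1.10 (SE 0.249, adjusted *p* 0.0193). *Otx2*, a homeobox factor of the same state, was lower in 8 of 8 libraries, at -0.60 (adjusted *p* 0.00871). None of the 3 was called with the replicate block. The abundant members *Dnmt3b* and *Dnmt3a* were not called.

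Most target genes of the tumour suppressor p53 and of the stress factor ATF4 were not called, and those called were lower. Of 27 tested p53 targets 5 were lower (18.5%, beside 1.96% of all genes) and none was higher, with a median of -0.12. A positive difference was found in 10 of the 27. Among the targets not called, *Mdm2* was at -0.245, *Bax* at -0.055 and *Ccng1* at -0.387. *Perp*, a membrane protein of desmosomes and apoptosis, was at 22.6, 19.2, 97.5 and 307 rpm in Nons, at 20.1, 12.2, 27.7 and 64.8 rpm with Smarca4.4 and at 24.2, 13.5, 26.7 and 55.8 rpm with Smarca4.6. The series ran together on day 4 and were far apart on days 6 and 7, and the mean difference was -1.20 (SE 0.136, adjusted *p* 0.000394). The test of the change from day 4 to day 7 did not call *Perp*. *Plk2*, a kinase of the stress response, differed by -0.77, *Btg2*, an antiproliferative gene, by -0.60, and *Phlda3*, an inhibitor of Akt, by -0.51. *Cdkn1a*, the cell cycle inhibitor p21, also passed, at -0.48 (adjusted *p* 0.0182), and was above Nons with both hairpins on day 5. None of the 5 was called without day 7, and with the replicate block 2 were.

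Of 34 tested genes of the ATF4 response, which supplies amino acids under stress, 5 were lower (14.7%, beside 1.96% of all genes) and none was higher. The list median was -0.16, and 6 of the 34 had a positive difference. Among the members not called, *Asns* was at -0.066, *Trib3* at -0.211, *Chac1* at -0.116 and *Ddit3* at 0.489. *Cth*, which makes cysteine from cystathionine, was at 113, 177, 190 and 121 rpm in Nons, at 98.4, 86.8, 46.9 and 32.7 rpm with Smarca4.4 and at 110, 88.0, 43.0 and 30.3 rpm with Smarca4.6. The hairpins gave close values on each day, and the mean difference was -1.29 (SE 0.0952, adjusted *p* 3.25e-05). *Slc7a11*, the cystine importer, differed by -1.07, *Atf3*, a stress-induced transcription factor, by -0.95, and *Psat1*, of serine synthesis, by -0.55. *Shmt2*, the mitochondrial enzyme that splits serine, was the fifth, at -0.47 (adjusted *p* 0.033). The list median lay below 0 in 8 of 8 libraries, between -0.34 and -0.02. Under the block 2 members were called, and with Smarca4.4 alone 1.

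Among genes of proliferation and basic metabolism the share called differed between lists, beside 4.75% higher and 1.96% lower among all genes. Of 26 tested G1 cyclins, kinases and inhibitors 2 were higher (7.69%) and 3 were lower (11.5%). *Cdk6*, a kinase that drives G1, was lower, at -0.98 (adjusted *p* 0.00678), as was the inhibitor *Cdkn1b*, at -0.69 (adjusted *p* 0.0117), and the third was *Cdkn1a*. *Cdkn2c*, another inhibitor, was higher by 1.18 at no more than 4.12 rpm, and *Ccnd3*, a D-type cyclin, by 0.57. Under the block only *Cdk6* of these 5 was called (adjusted *p* 0.0441). Of 42 tested DNA replication genes 3 were higher (7.14%). *Cdc6*, which loads the replicative helicase, was higher by 0.77, *Pold2*, a polymerase subunit, by 0.70, and *Cdc45*, a helicase cofactor, by 0.54, each in 8 of 8 libraries, and under the block only *Cdc6* of the 3 was called (adjusted *p* 0.0274). None of 36 mitosis and spindle genes was called, and among them the median was 0.06. One of 85 cytosolic ribosomal protein genes, 1 of 76 mitochondrial ribosomal protein genes and 1 of 80 genes of oxidative phosphorylation were called, all higher, and none of 38 proteasome genes was. Of these 3 calls, the mitochondrial ribosomal one was also made under the block. Of 33 glycolysis and hypoxia genes 1 was called, the lactate dehydrogenase gene *Ldhb*, which was lower in 8 of 8 libraries, at -1.10 (adjusted *p* 0.000525).

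**Figure D4:**
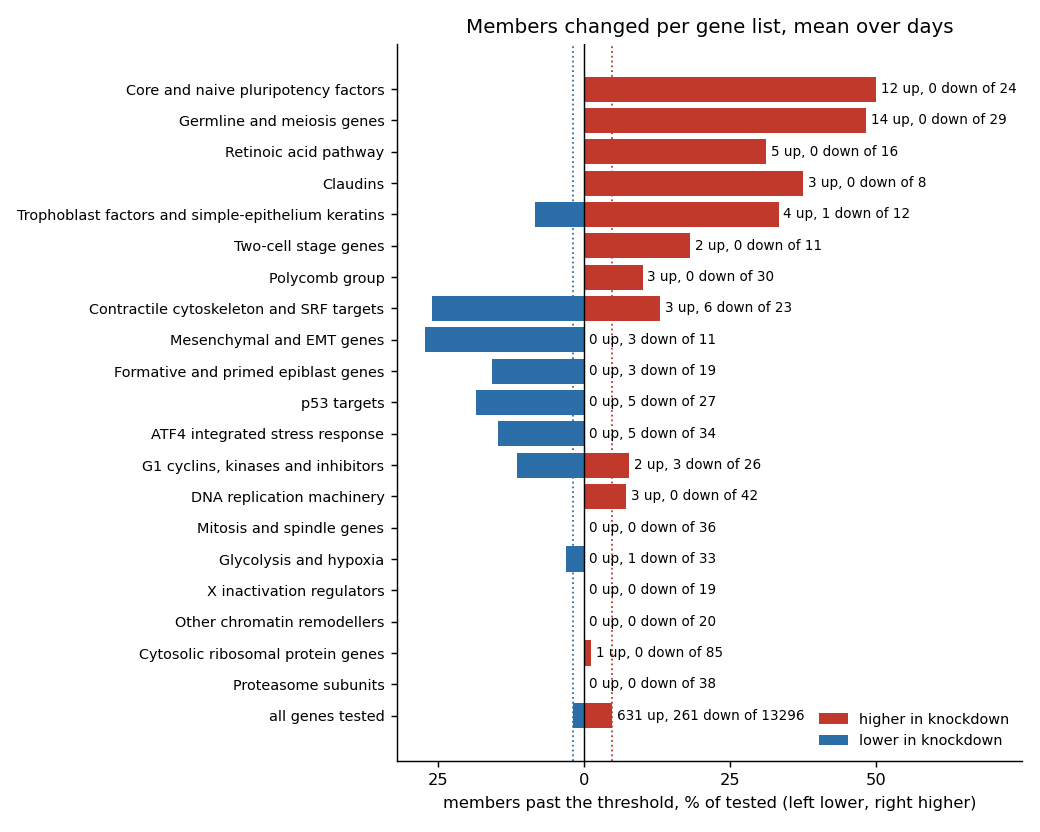
Share of tested members that were called higher (right) or lower (left) in each of 20 gene lists, in percent, with the counts beside the bars and dotted lines at the shares among all genes, 4.75% higher and 1.96% lower. Core and naive pluripotency factors and germline genes reach 12 of 24 and 14 of 29, while mitosis, proteasome and X inactivation genes have none called.

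Developmental signals and lineage factors were called in both directions, beside 4.75% higher and 1.96% lower among all genes. *Sox1*, a neural progenitor factor, was at 3.71, 2.84, 1.34 and 0.533 rpm in Nons, at 6.91, 10.4, 29.9 and 8.14 rpm with Smarca4.4 and at 3.79, 9.21, 7.56 and 5.10 rpm with Smarca4.6, higher by 2.33 (SE 0.331, adjusted *p* 0.00123). Of 13 tested neural genes 2 were higher (15.4%) and 2 were lower (15.4%). *Neurog3* was also higher, by 1.88, whereas *Stmn4*, a microtubule regulator of neurons, differed by -2.08 and *Neurod1* by -1.15. *Stmn4* reached 28.7 rpm in Nons on day 6 and 5.70 and 2.41 rpm in the knockdown. It had no reads with Smarca4.4 on day 4, so its fitted difference rests in part on the value given to a gene without reads. Of 12 tested endoderm genes 2 were higher and 1 was lower. *Apoe*, a lipid carrier, was at 301, 227, 751 and 909 rpm in Nons, at 533, 536, 1300 and 2420 rpm with Smarca4.4 and at 524, 1140, 2520 and 2750 rpm with Smarca4.6, higher by 1.34 (SE 0.213, adjusted *p* 0.00258). *Gata4* was higher by 0.89 at 0.549 to 4.56 rpm in the knockdown, and *Sparc*, a matrix protein, was lower, at -0.43 (adjusted *p* 0.0446). Under the block 3 of the 4 neural genes were called, without *Neurod1*, and of the 3 endoderm genes *Apoe* alone.

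In the Wnt pathway 2 of 25 tested genes were higher (8%) and 2 were lower (8%), beside 4.75% and 1.96% of all genes. *Wnt8a*, a ligand, was higher by 0.96 and *Notum*, a Wnt deacylase, by 0.81, while the ligand *Wnt3* and the decoy receptor *Sfrp1* were lower, at -0.72 and -0.67. Only *Wnt8a* of these 4 was called under the block (adjusted *p* 0.0423). In the Hedgehog and Notch pathways 3 of 18 were higher (16.7%) and 1 was lower (5.56%). The Notch ligand *Dll1* was higher by 1.26, *Gli1*, a Hedgehog target, by 0.90 and *Rbpj*, the Notch effector, by 0.57, and *Lfng*, which modifies Notch, was lower, at -0.95. Only *Dll1* of these 4 was called under the block (adjusted *p* 0.0423). In the LIF pathway *Socs3*, a feedback inhibitor of Stat3, was the 1 called gene among 20 tested (5%). It was higher by 1.12 (adjusted *p* 0.0195) and was not called under the block (adjusted *p* 0.163). Imprinted genes gave 2 higher (7.14%), *Igf2* and *Phlda2* at 0.83 and 0.58, among 28 tested. They gave 2 lower (7.14%), *Nnat* and, at -2.37, *Dcn*, and their median was 0.00. None of the 4 was called under the block.

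The number of calls differed between days and depended on single libraries. On day 4 and on day 5 limma called no gene, with 313 and 1144 genes at an unadjusted *p* under 0.05, and limma-voom on recovered reads also called none on either day. On day 6, 129 genes were called (0.97%), 100 higher and 29 lower, and on day 7, 212 genes (1.59%), 155 higher and 57 lower. Without the small Smarca4.4 library of day 5, the counts were 0 on day 4, 426 on day 5, 166 on day 6 and 286 on day 7, so the day with most calls was then day 5. With Smarca4.6 as the single hairpin 3 genes were called on day 6 and 34 on day 7, and with Smarca4.4 as the single hairpin 21 and 5. The change of the difference from day 4 to day 7 was tested directly and called 11 genes (0.0827%), 10 with an increase and 1, *Cth*, with a decrease. *Cth* differed by -0.12 on day 4 and by -1.94 on day 7, a change of -1.83 (adjusted *p* 0.0302). The 3 largest increases were in *Neurog3*, a factor of endocrine and neural progenitors, *En2*, a homeobox factor of the midbrain, and *Peg12*, a paternally expressed gene. *Neurog3* had 2 reads in Nons on day 7, and *En2* and *Peg12* had 1 read each, against 82, 39 and 84 reads in both hairpin libraries together. The day 7 ratios of rpm were 19.9, 18.9 and 40.7, with 95% exact intervals from counting error alone of 5.33 to 167, 3.20 to 765 and 7.11 to 1630. With a single hairpin, with only genes of at least 10 rpm or with 1 added to the rpm values, limma called no gene for this change.

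The changed genes were then grouped by how they behave during differentiation, using the day 4 to day 7 change within the 8 *Smarcc1* knockdown libraries, which share no library with the *Smarca4* comparison. Both comparisons came from the same fit and use each gene's same residual spread, so a gene with a small spread passes more readily in both, and the shares below are a description that is not independent of this. Of 2453 genes that fell with time, 7.58% were higher in *Smarca4* knockdown and 1.26% were lower. Of 3957 genes that increased with time, 5.33% were higher and 3.64% were lower. Of 6886 genes without a called change, 3.40% were higher and 1.25% were lower. Calls were also more common at low levels. Among genes with a mean log2 rpm under 1 in the *Smarcc1* libraries 8.88% were higher, and among those at 5 or more 2.04% were. Within the class at 1 to 3, genes that fell with time were higher in 18.4% and genes that increased in 7.11%, and within the class at 5 or more the shares were 3.07% and 2.55%. Genes lower in the knockdown at that high level were 3.82% of those that increased with time and 0.472% of those that fell.

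**Figure D5:**
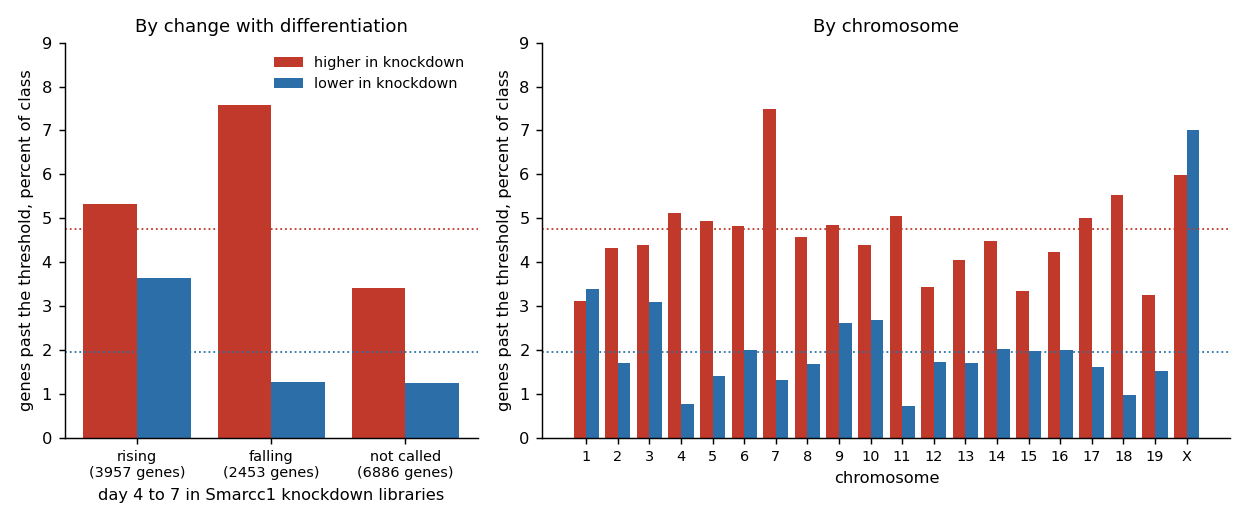
Percent of genes called higher or lower in *Smarca4* knockdown, by change from day 4 to 7 in the *Smarcc1* knockdown libraries (left) and by chromosome (right), with dotted lines at the shares among all genes, 4.75% and 1.96%. Genes that fall with time have the largest share of higher calls on the left, at 7.58%, and the X chromosome has the largest share of lower calls on the right, at 7.01%.

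By chromosome, the X held the largest share of lower genes. Of 485 X-linked genes tested 34 were lower, 7.01% against 1.96% of all genes, and 29 were higher, 5.98%, with a median difference of -0.01. The share of lower genes on the autosomes ran from 0.72% on chromosome 11 to 3.39% on chromosome 1. Among the largest falls named above, *Kctd12b*, *Dcaf12l1* and *Tspan7* are X-linked, and so is *Zmym3* among the rises. These cells are male and have a single X chromosome. *Xist*, the RNA that coats an inactive X chromosome, was at 7.95 to 22.5 rpm in Nons and 10.4 to 25.4 rpm in the knockdown and was not called (difference 0.57, adjusted *p* 0.189), and it overlaps the antisense gene *Tsix*. Chromosome 7 had the largest share of higher genes, 80 of 1069 or 7.48%.

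The *Smarcc1* knockdown, which removes a core subunit of the same complex, shares the Nons libraries with the comparison above. The 2 knockdowns were therefore also compared directly, without Nons, and 544 genes (4.09%) were called, 205 higher and 339 lower in *Smarca4* knockdown. *Smarca4* differed by -2.06 (adjusted *p* 0.000508), and *Smarcc1* was higher by 1.54 (adjusted *p* 0.000417). *Cldn3* was higher by 1.02 in *Smarca4* than in *Smarcc1* knockdown (adjusted *p* 0.00314), *Cldn4* by 0.70 (adjusted *p* 0.0101), *Cldn9* by 0.84 (adjusted *p* 0.0412) and *Ctgf* by 0.71 (adjusted *p* 0.000809). Their differences from Nons in *Smarcc1* knockdown were 0.27, 0.02, 0.13 and -0.14. *Chst11* was lower in *Smarca4* knockdown, at -1.07 (adjusted *p* 0.013), and so was *Kctd12b*, at -1.03 (adjusted *p* 0.0184).

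Several genes that were higher in *Smarca4* knockdown were higher still in *Smarcc1* knockdown. *Stra8* differed between *Smarca4* and *Smarcc1* knockdown by -1.93 (adjusted *p* 0.000565), *Neurog3* by -1.87 (adjusted *p* 0.000417), *Gli1* by -1.69 (adjusted *p* 0.000139) and *Dmrt1* by -1.29 (adjusted *p* 0.000393). *Tdh*, a threonine dehydrogenase of mESCs, differed by -1.49 (adjusted *p* 0.000502) and *Esrrb* by -0.60 (adjusted *p* 0.0488). *Klf2*, *Nanog*, *Stag3*, *Tagln* and *Krt19* were not called in the direct comparison, with differences of -0.47, -0.25, 0.12, 0.22 and 0.01. With the replicate block 105 genes were called between the knockdowns, and 1067 without the Smarca4.4 library of day 5.

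The labelled cell type was checked against its markers. Of the 6 pluripotent markers, *Pou5f1*, *Nanog*, *Sox2*, *Zfp42*, *Dppa5a* and *Utf1*, all were tested and *Nanog* and *Zfp42* were higher. Their summed level was 806 to 3010 rpm in Nons and 1140 to 3610 rpm in the knockdown. The 4 Y-linked genes summed to 215 to 272 rpm and 158 to 337 rpm, and none was called. Of 8 fibroblast markers 4 were tested and 1, *Dcn*, was lower, and they summed to 11.7 to 54.8 rpm and 6.83 to 43.5 rpm. The 6 endoderm markers summed to no more than 4.21 rpm in Nons and 6.76 rpm in the knockdown, and the 5 mesoderm markers to no more than 6.50 and 19.5 rpm, where *Gata4* and *Hand1* were higher. The 4 neural markers summed to 65.7 to 135 rpm and 57.8 to 182 rpm, with *Sox1* higher, and the 5 trophoblast markers to 7.94 to 166 rpm and 8.93 to 145 rpm. Of 3 blood markers in the table *Tyrobp* and *Hba-x* had no reads in the 12 libraries. In bulk libraries fewer cells of a type and less RNA per cell cannot be told apart, and the part of cell composition in the differences was not tested.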

How the data were processed

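The authors aligned trimmed single-end reads to mm10 and quantified genes in SeqMonk, and the deposited values are log2 rpm; HISAT2 is named in the submitters' processing notes. Annotation release and strand use are not given in the sources used here, so overlapping and antisense genes are uncertain. The lowest value of a library equals 0.9 of a read, from which whole reads and totals were recovered. All 20 libraries entered limma 3.58.1 (lmFit, eBayes with trend) with 12 group and day means and 8 residual degrees of freedom, for genes whose log2 rpm averaged 0 or more. The fit was also run on simulated counts drawn independently for each library, so that run cannot check the effect of links between days of a hairpin. Named genes were *Smarca4* and BAF members, the 12 largest rises and falls of at least 10 rpm shared by both hairpins on all days, up to 4 called members per direction of a list (the 2 most abundant where fewer than 2 were called), and the 3 largest changes from day 4 to 7. Other list members named were chosen after their values were seen. The comparison and all lists were chosen with earlier results of these data known. Hairpin numbers pair no cultures. A check of promoter CpG content was void because 69.3% of tested genes matched the promoter table. Intervals cover counting error only. A few genes that these rules name are not reported here.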

Additional observations from a re-analysis of the deposited data

Results flagged for a closer look

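The difference between *Smarca4* knockdown and Nons changed from day 4 to day 7, by the test of that change itself, for 5 of the genes named or listed, each with an adjusted *p* of 0.0302. The log2 change was 4.75 for *Neurog3*, 4.65 for *En2*, 4.54 for *Peg12* and 3.95 for *Itgal*, an integrin of leukocytes, and it was -1.83 for *Cth*. *Itgal* had 1 read in Nons on day 7 against 30 reads in both hairpin libraries, a ratio of 14.5 with a 95% exact interval of 2.42 to 593 from counting error alone.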

How the results depend on the processing

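The mean over days called 892 genes. It called 266 with at least 10 rpm, 258 with a replicate block for each hairpin's or Nons's 4 days, 277 to 420 with a hairpin left out, and 497, 431 and 132 without day 4, 6 or 7. Day 5 called 426 without the small Smarca4.4 library, an alternative chosen after seeing the data. Day 6, with 129, called 32 at 10 rpm, 61 with 1 added to rpm, 75 after quantile normalization, 52 without the *Smarcc1* libraries and 3 to 21 with a hairpin left out. Day 7, with 212, called 54, 88 after quantile normalization, 111 without the *Smarcc1* libraries and 5 to 34 with a hairpin left out. The change from day 4 to 7, with 11, called 1 without a filter, 4 with limma-voom, 20 with the replicate block, and 0 at 10 rpm, with 1 added, after quantile normalization, without the *Smarcc1* libraries or with either hairpin left out. Against *Smarcc1* knockdown, with 544, the counts were 182 at 10 rpm, 105 with the block, 88 to 156 with a hairpin left out, 327, 173 and 56 without day 4, 6 or 7, and 1067 without the small library. The *Smarca4* difference was -1.99 to -1.59 with a hairpin left out and -1.76 without day 7, and it no longer passed with Smarca4.4 alone or without day 7. For these changes the cause was not tested, beyond fewer genes or libraries where the alternative has them.

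Of 182 genes, which are the named genes and other called members of the lists, 34 were called under each of the 16 alternatives that could test them. None reversed direction. The alternatives refit the same libraries, or part of them, for genes chosen because they were called, so the lack of reversals adds no support. Hairpin deviations between days correlated at -0.206 to 0.367 (mean 0.0932) in *Smarca4* and 0.0233 to 0.823 (mean 0.331) in *Smarcc1* knockdown. Adding the second Nons replicate and a promoter CpG check were not run. Depth limits low genes most: 3 reads are worth 0.109 to 0.439 rpm.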

Other observations

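Of 217 tested solute carriers 17 were higher (7.83%, beside 4.75% of all genes) and 6 were lower (2.76%, beside 1.96%), with a median difference of 0.13 against 0.06 for all genes. Under the replicate block 2 were higher and 1 was lower. *Slc23a1*, a vitamin C transporter, was higher by 1.43 in 8 of 8 libraries (adjusted *p* 0.000395), and *Slc6a15*, a neutral amino acid transporter, was lower, at -0.90 (adjusted *p* 0.00133). Of 22 tested interferon and innate immune genes 3 were higher (13.6%) and none was lower. The 3 were *Ifitm1*, *H2-D1*, a class I histocompatibility gene, at 0.64 (adjusted *p* 0.0198), and *Irf9*, a factor of the interferon response, at 0.62 (adjusted *p* 0.0132). Only *Ifitm1* of the 3 was called under the block (adjusted *p* 0.00435).

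Of 22 tested collagens 3 were higher (13.6%, beside 4.75% of all genes) and none was lower. The list median was 0.83 on day 5 and 0.005 on day 7, and 5 of the 22 had a negative difference. *Col5a3* was higher by 1.25 in 8 of 8 libraries (adjusted *p* 0.00496), *Col17a1* by 1.38 and *Col16a1* by 1.17, with at most 6.59 rpm in any library of the knockdown, and only *Col5a3* was called under the block (adjusted *p* 0.0418). Of 27 tested cilium genes 2 were higher (7.41%) and 1 was lower (3.7%, beside 1.96% of all genes). *Ccno* and the regulator *Rfx2* were higher, the latter by 1.21 (adjusted *p* 0.0318). *Dnaic1*, a dynein chain of motile cilia, was lower, at -1.49 (adjusted *p* 0.00544), and *Rfx2* was not called under the block.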
